A study of Mus musculus with 11 samples.

Results

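The 8 fat cell genes Adipoq, Retn, Lep, Fabp4, Lpl, Cidec, Pparg and Cebpa were followed through stomach muscle and the progenitor lines derived from it. They were chosen as a list, and every probe set that carried 1 of these symbols alone in the platform's annotation was taken, which gave 12 probe sets for 8 genes out of 34945 probe sets for 18193 genes. Of the 12 probe sets, 10 lay above the median of their array on at least 2 arrays and were tested. The probe set of Lep and the Fabp4 probe set 1424155_at did not, and are given as levels.

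The study set clonal progenitor lines of the pacemaker cells of the gut wall, the interstitial cells of Cajal (ICC), beside their source tissue, the gastric tunica muscularis. The tsA58 line (2xSCS70), labelled conditionally immortalized, came from H-2Kb-tsA58 mice and has 3 arrays; it was grown in neural stem cell proliferation medium at 39.5 °C without interferon-gamma. H-2Kb-tsA58 mice carry the SV40 large T antigen in a heat-sensitive form, driven by the H-2Kb promoter, which interferon induces, so the tsA58 tissue, with 3 arrays, carries the transgene as well. The C57BL/6J line (2xSCS2F10), labelled wild-type, has 3 arrays and was grown in that medium with 5% chick embryo extract at 37 °C, and the C57BL/6J tissue has 2 arrays. Each line is 1 clone, line and temperature of growth go together, and no ages are given. The titles call the arrays of a group biological replicates, but nothing says which came from separate animals or cultures, so p-values measure the spread between these arrays, which may be technical.

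Adipocytes store triglyceride in a single large droplet, take up fatty acids that lipoprotein lipase frees at the capillary wall, and secrete hormones such as adiponectin, leptin and, in rodents, resistin. The nuclear receptor PPARγ and the transcription factor C/EBPα switch on this programme during fat cell differentiation and maintain each other's expression. Adiponectin is made almost only by adipocytes, while Fabp4, Lpl, Pparg and Cebpa are also expressed by other cells, Fabp4 by capillary endothelium and macrophages among them. Fat lies along the outer surface of the stomach wall, and the muscularis itself holds few fat cells.

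Levels are log2 intensities, on which 1 unit is a doubling of signal, and array medians lay between 4.66 and 4.84. Values below the median cannot be told from background, and levels of different probe sets are not compared. Fold changes are log2 differences with standard errors, and a probe set was called changed at an adjusted p below 0.05 in limma and a change of at least 2-fold. In such bulk samples, fewer cells of a type and less RNA per cell cannot be told apart.

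Adipoq, which encodes the hormone adiponectin, was at background in both lines, clear in C57BL/6J tissue and highest in tsA58 tissue. The Adipoq probe set (1422651_at) gave 3.30, 3.04 and 3.28 in the tsA58 line, against 7.75, 12.20 and 11.33 in tsA58 tissue. In the C57BL/6J line it gave 3.34, 3.41 and 3.33, against 6.44 and 6.54 in C57BL/6J tissue. No line array reached any tissue array, and the lowest tsA58 tissue array still lay above both C57BL/6J tissue arrays. Adipoq was lower in the tsA58 line than in tsA58 tissue by a log2 fold change of -7.22 ± 0.84 (adjusted p = 6.71e-05), which is 149-fold, and lower in the C57BL/6J line than in C57BL/6J tissue by -3.13 ± 0.94 (adjusted p = 0.0193). Since the lines sat at background, both values understate the change. Adipoq passed the filter through tissue arrays alone, so both p-values describe these arrays only. Without the filter the adjusted p in limma was 0.000198 for tsA58 and 0.0337 for C57BL/6J. The tsA58 tissue exceeded the C57BL/6J tissue by 3.93 ± 0.94 (adjusted p = 0.0132). That call was lost with either C57BL/6J tissue array left out (adjusted p = 0.0874 without replicate 1 and 0.0764 without replicate 2), when a single C57BL/6J tissue array remains and is taken to vary like the other groups, and in a fit of the 2 tissues alone (adjusted p = 0.0787).

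Retn, which encodes resistin, followed Adipoq only in tsA58 tissue. Its levels were 5.04, 5.15 and 5.76 in the tsA58 line, against 5.83, 10.73 and 10.28 in tsA58 tissue. They were 5.78, 5.97 and 5.75 in the C57BL/6J line, against 5.57 and 5.78 in C57BL/6J tissue. Replicates 2 and 3 of tsA58 tissue thus stood far above the 9 other arrays, while replicate 1 lay within the range of the C57BL/6J line. Retn was called lower in the tsA58 line than in tsA58 tissue, at -3.63 ± 0.98 (adjusted p = 0.0112), a call lost in a fit of those 2 groups alone (adjusted p = 0.0505). The tissues differed by 3.28 ± 1.09 (adjusted p = 0.0522), not called with all arrays, and by 4.83 ± 0.28 (adjusted p = 1.18e-05) without tsA58 tissue replicate 1. That array was the lowest of its group, so leaving it out raises the difference and narrows the spread. Retn was not called without replicate 2 (2.38, adjusted p = 0.133) or without replicate 3 (2.61, adjusted p = 0.146). In C57BL/6J the line-minus-tissue difference was 0.16, with a 95% interval of -2.25 to 2.57.

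Lep, which encodes leptin, stayed below the array median on all 11 arrays. It read 2.97, 3.17 and 3.20 in the tsA58 line, against 2.96, 3.84 and 3.06 in tsA58 tissue. It read 3.71, 3.84 and 3.20 in the C57BL/6J line, against 3.15 and 3.28 in C57BL/6J tissue. All 4 groups overlapped. Leptin transcript was therefore not detectable above background here, also on the arrays with the highest Adipoq.

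Fabp4, the fatty acid carrier of the adipocyte cytosol, was high in all 5 tissue arrays and fell in both lines. Probe set 1417023_a_at gave 4.70, 6.29 and 7.45 in the tsA58 line, against 10.33, 12.02 and 12.12 in tsA58 tissue. It gave 5.79, 5.22 and 4.87 in the C57BL/6J line, against 10.92 in both arrays of C57BL/6J tissue. The lines lay below the tissues without overlap, and the C57BL/6J tissue arrays lay inside the range of tsA58 tissue. Fabp4 was called lower in the lines than in tissue, both for tsA58 (-5.34 ± 0.64, adjusted p = 7.93e-05) and for C57BL/6J (-5.63 ± 0.72, adjusted p = 0.000118). Between tissues this probe set differed by 0.57, with a 95% interval of -1.01 to 2.15.

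The other Fabp4 probe sets did not all move alike. Probe set 1451263_a_at ran with the first, at -5.18 ± 0.59 (adjusted p = 5.31e-05) for tsA58 and -5.34 ± 0.66 (adjusted p = 9.41e-05) for C57BL/6J, line minus tissue. In both of these probe sets the tsA58 line arrays spread over 2.76 and 2.59 units, from 4.70 to 7.45 and from 3.37 to 5.96, with replicate 3 the highest and replicate 1 the lowest each time. Probe set 1425809_at was dim and ran the other way between tissues, with 3.50, 4.10 and 4.83 in tsA58 tissue, against 5.24 and 5.02 in C57BL/6J tissue (-0.98 ± 0.32, adjusted p = 0.0456, just short of 2-fold). Probe set 1424155_at lay below the array median everywhere. Its tissue levels were 3.72, 4.50 and 3.95 in tsA58 tissue, against 2.94 and 2.89 in C57BL/6J tissue, which a test of all 45037 probe sets without the filter put at 1.14 ± 0.22 (adjusted p = 0.00678). The bright probe sets, 1417023_a_at and 1451263_a_at, were higher in tsA58 tissue by 0.57 and 0.73, neither called, and the other 2 lay near or under the level at which signal cannot be told from background.

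Lpl, the lipase that frees fatty acids from circulating lipoproteins, was bright on all 11 arrays and was called in no comparison. Probe set 1415904_at gave 9.95, 10.54 and 11.16 in the tsA58 line, against 10.39, 11.55 and 10.92 in tsA58 tissue. It gave 9.50, 9.53 and 10.39 in the C57BL/6J line, against 10.67 and 10.03 in C57BL/6J tissue. The ranges of all 4 groups overlapped in a chain, and neighbours in their order did not differ beyond their spread. The line-minus-tissue difference was -0.40 in tsA58 (95% interval -1.26 to 0.46) and -0.55 in C57BL/6J (-1.51 to 0.41). For probe set 1431056_a_at it was 0.07 in tsA58 (-1.15 to 1.28) and 0.56 in C57BL/6J (-0.80 to 1.92). The intervals are wide, and each of the 4 includes a change of 2-fold in 1 direction or both.

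Cidec, a protein that fuses lipid droplets into the single droplet of the white adipocyte, was above the array median on 2 arrays alone. It gave 3.37, 2.93 and 3.16 in the tsA58 line, against 4.25, 8.57 and 8.01 in tsA58 tissue. It gave 3.76, 3.60 and 3.39 in the C57BL/6J line, against 4.48 and 4.66 in C57BL/6J tissue. Replicate 1 of tsA58 tissue lay below both C57BL/6J tissue arrays, and replicates 2 and 3 lay far above all others. Cidec was called lower in the tsA58 line than in tsA58 tissue, at -3.79 ± 0.85 (adjusted p = 0.00416). It passed the filter through replicates 2 and 3 of that tissue alone, so this p-value is no support. Without the filter the adjusted p in limma was 0.00858. The fold change understates the difference because the line lay under the array median. The tissues differed by 2.37 ± 0.95 (adjusted p = 0.0952), and by 3.72 ± 0.25 (adjusted p = 3.07e-05) without tsA58 tissue replicate 1. The latter fit keeps the 2 arrays through which Cidec passed the filter and drops the lowest, so its p-value is no support. Cidec was not called without replicate 2 (1.56, adjusted p = 0.243) or without replicate 3 (1.84, adjusted p = 0.243).

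Pparg, the nuclear receptor at the head of the fat cell programme, was lower in both lines than in tissue, and lowest in the tsA58 line. Its levels were 4.37, 3.85 and 3.99 in the tsA58 line, against 6.04, 8.16 and 7.44 in tsA58 tissue. In the C57BL/6J line they were 5.49, 5.46 and 5.13, against 6.75 and 6.81 in C57BL/6J tissue. The order of group means was tsA58 line, C57BL/6J line, C57BL/6J tissue and tsA58 tissue, and the last 2 overlapped. Pparg was called lower in the tsA58 line than in tsA58 tissue (-3.14 ± 0.42, adjusted p = 0.000171). In the C57BL/6J line it was also called lower (-1.42 ± 0.47, adjusted p = 0.0299), a call lost without any single array of the C57BL/6J line or of the C57BL/6J tissue (adjusted p = 0.0565 to 0.124). Between the lines Pparg was called lower in the tsA58 line at -1.29 ± 0.42 (adjusted p = 0.0492), a call that ended without filter (adjusted p = 0.0724), with 9 of the 11 single arrays left out, and when arrays were centred on hybridisation controls, where the difference was 0.20. All 3 tsA58 line arrays lay under the array median, so the tsA58 line values understate the change.

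Cebpa, which encodes C/EBPα, had the smallest changes among the called members. It gave 5.72, 5.72 and 5.61 in the tsA58 line, against 5.83, 7.96 and 6.65 in tsA58 tissue. It gave 4.95, 4.85 and 4.47 in the C57BL/6J line, against 5.85 and 6.16 in C57BL/6J tissue. Replicate 1 of tsA58 tissue was nearly at the level of the tsA58 line. Cebpa was called lower in the lines than in tissue, both for tsA58 (-1.13 ± 0.42, adjusted p = 0.0459) and for C57BL/6J (-1.26 ± 0.47, adjusted p = 0.0466). The first call was lost in 10 and the second in 9 of the 11 fits that left out 1 array, and both were lost without filter (adjusted p = 0.0695 and 0.0679). The lines differed by 0.93 ± 0.42 (adjusted p = 0.133), with the tsA58 line higher, opposite in sign to Pparg.

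**Figure D1:**
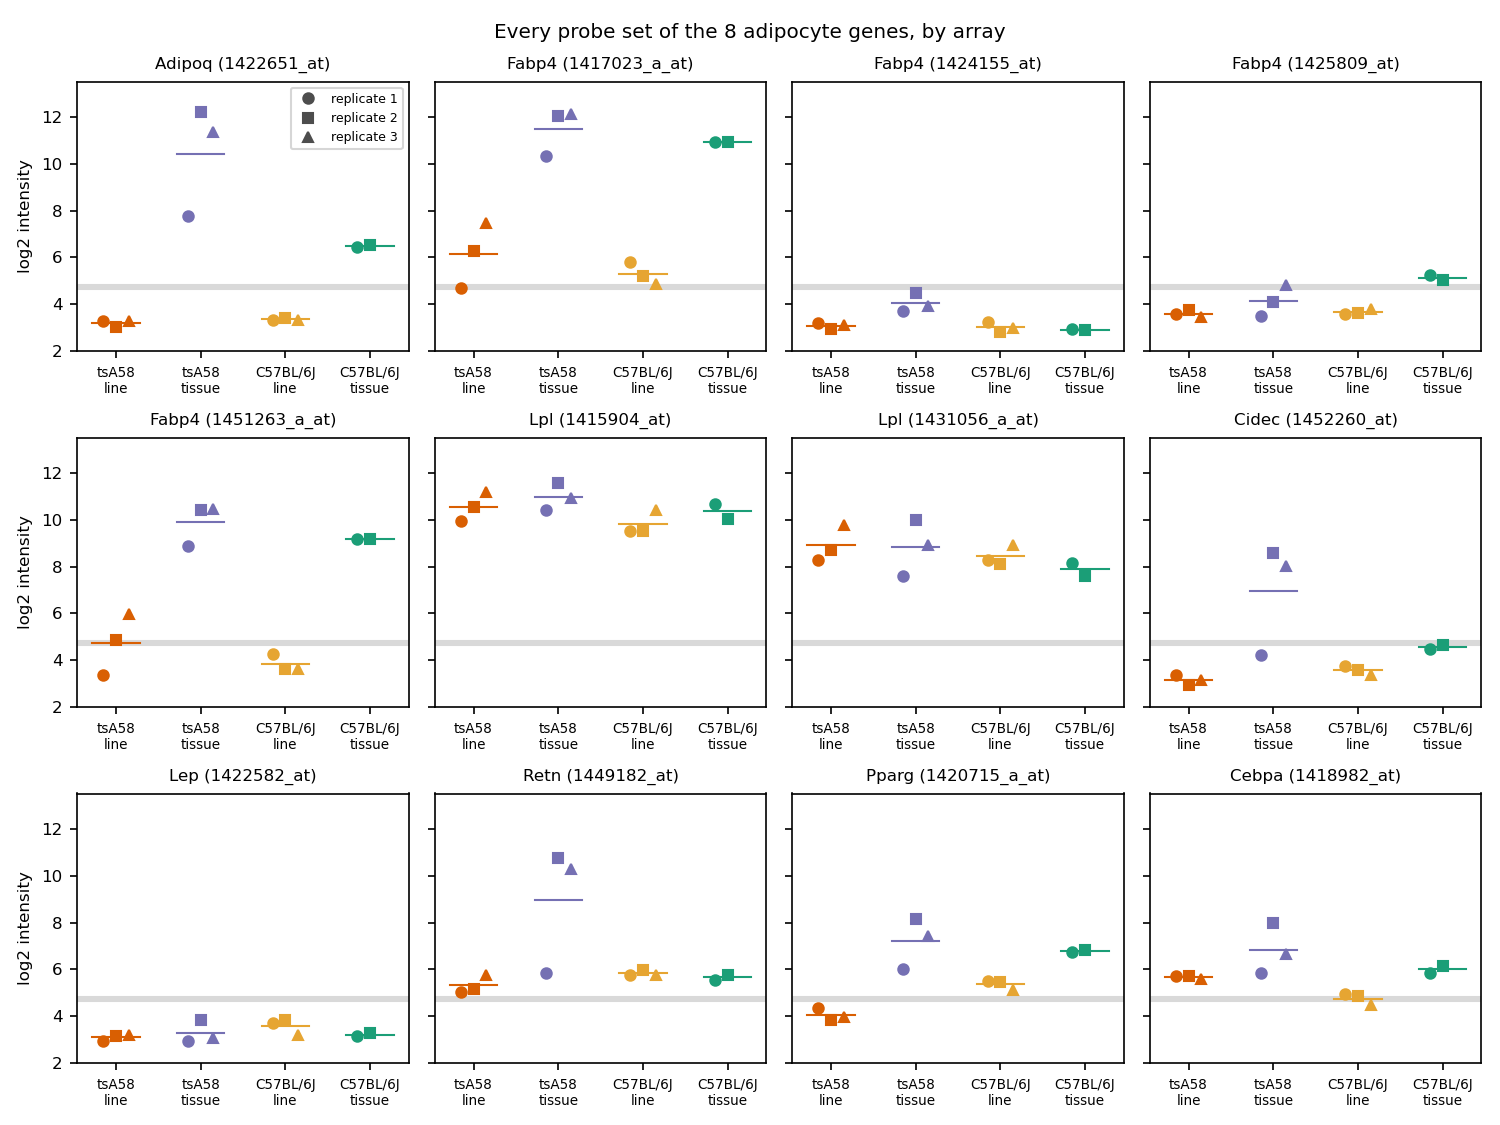
Log2 intensity of each of the 12 probe sets of the 8 genes, with a panel per probe set and a point per array, for the tsA58 line, tsA58 tissue, C57BL/6J line and C57BL/6J tissue. Short bars are group means and the grey band is the range of array medians. In Adipoq, Retn and Cidec, replicate 1 of tsA58 tissue lies far below replicates 2 and 3; Adipoq runs from 7.75 to 12.20 there, while the 2 C57BL/6J tissue arrays lie at 6.44 and 6.54.

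Counted over probe sets, 7 of the 10 tested were called lower in the tsA58 line than in tsA58 tissue, where 15.9% of all 26903 tested probe sets were called lower, and 0 were called higher (14.6% of all). In C57BL/6J, 6 of the 10 were called lower in the line, with 16.3% of all called lower, and again 0 higher (17.8% of all). Several of these probe sets belong to Fabp4. With each gene read by its brightest probe set, 6 of 7 tested genes were called lower in tsA58 (18.9% of all genes). In C57BL/6J 4 of 7 were (16.6% of all genes). The probe sets of Adipoq and Cidec and Fabp4 1425809_at passed the filter through tissue arrays alone, so these counts are a description. Between the lines 1 of the 10 was called lower (5.52% of all) and 0 higher (8.71%), and between the tissues 1 was called higher in tsA58 (9.83% of all) and 0 lower (6.04%). Without replicate 1 of tsA58 tissue, 5 were called higher in tsA58 tissue than in C57BL/6J tissue, with 9.45% of all, namely Adipoq, Retn, Cidec, Cebpa (1.30 ± 0.37, adjusted p = 0.0311) and Pparg (1.02 ± 0.28, adjusted p = 0.0269). Replicate 1 was the lowest tsA58 tissue array for all 10, so leaving it out favours such calls. Cidec had passed the filter through replicates 2 and 3 alone. Without replicate 2 or 3, Adipoq alone was called higher, at 3.05 and 3.48. Pparg turned to -0.038 without replicate 2.

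**Figure D2:**
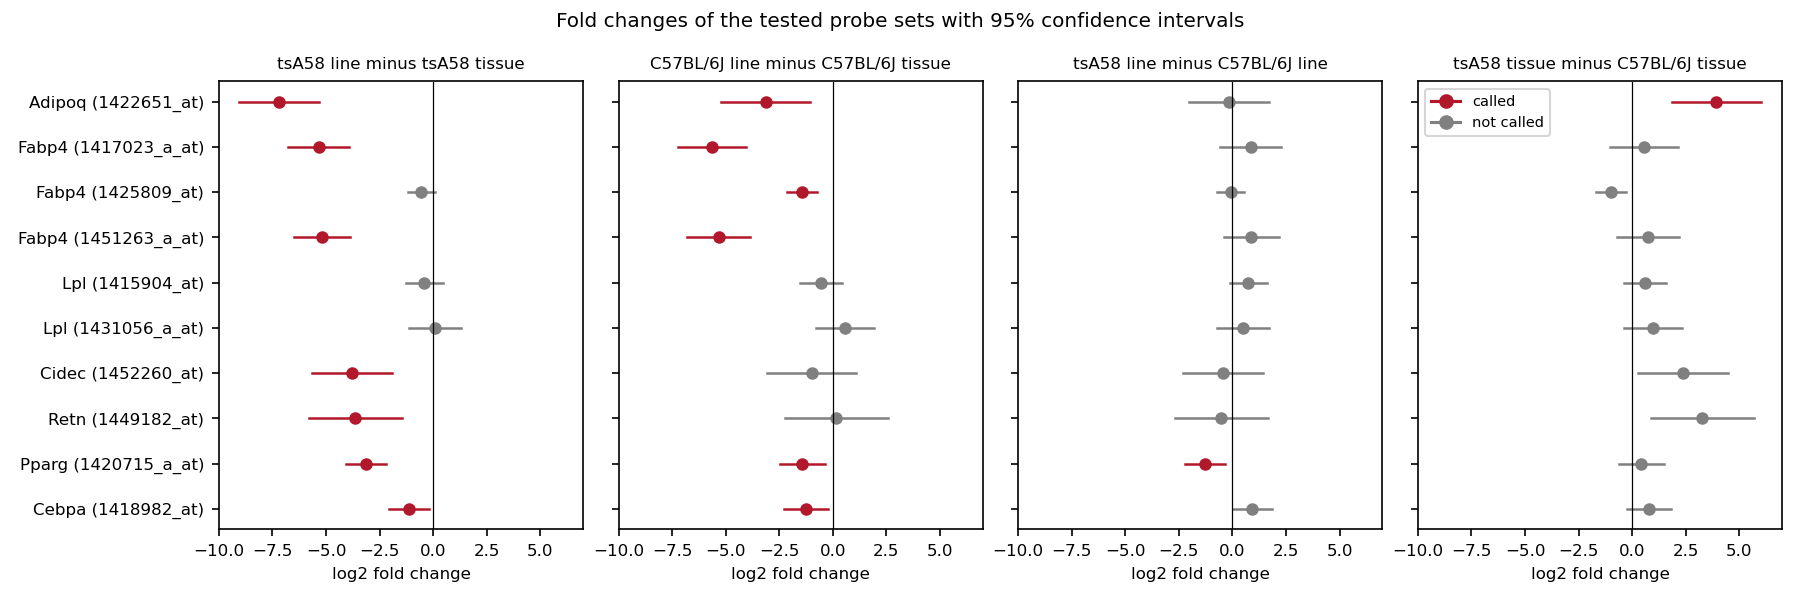
Log2 fold changes of the 10 tested probe sets with 95% confidence intervals from limma, in a panel each for the tsA58 line minus tsA58 tissue, the C57BL/6J line minus C57BL/6J tissue, the tsA58 line minus the C57BL/6J line, and tsA58 tissue minus C57BL/6J tissue. Red marks called changes and grey marks the others. Adipoq has the largest shift in the first panel (-7.22), both Lpl probe sets span 0 in all panels, and Adipoq at 3.93 is the sole call between tissues.

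The line-minus-tissue differences of the strains differed for Adipoq, at -4.09 ± 1.27 for tsA58 minus C57BL/6J (adjusted p = 0.0384), a contrast in which 12.3% of all probe sets were called lower. The call was lost in 9 of the 11 fits with 1 array left out (adjusted p up to 0.115) and without filter (adjusted p = 0.0630). The same contrast gave -3.79 ± 1.46 for Retn (adjusted p = 0.0838), -2.80 ± 1.27 for Cidec (adjusted p = 0.135) and -1.73 ± 0.63 for Pparg (adjusted p = 0.0708). For Fabp4, Lpl and Cebpa it lay between -0.49 and 0.89. With the lines at background in both strains, this contrast for Adipoq rests on the tissue arrays.

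For all 10 tested probe sets the range among the tsA58 tissue arrays exceeded the difference between the tissue means, and for 3 members it was over 4 units. Retn ranged over 4.90 units there, Adipoq over 4.45 and Cidec over 4.32, wider than all but 0.193%, 0.282% and 0.316% of the 26903 tested probe sets, for which the median range was 0.50. Cebpa and Pparg ranged over 2.12 each, and Lpl over 1.15 and 2.39. All 10 tested probe sets were lowest in replicate 1, where 34.3% of all tested probe sets were lowest. Between replicates 2 and 1, a comparison of single arrays with no test, Retn was 29.9-fold higher in replicate 2, Adipoq 21.8-fold, Cidec 20.0-fold, Cebpa 4.36-fold and Pparg 4.35-fold, and 4.28% of all probe sets were at least 2-fold higher. In C57BL/6J tissue no tested member differed between its 2 arrays by more than 0.64.

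**Figure D3:**
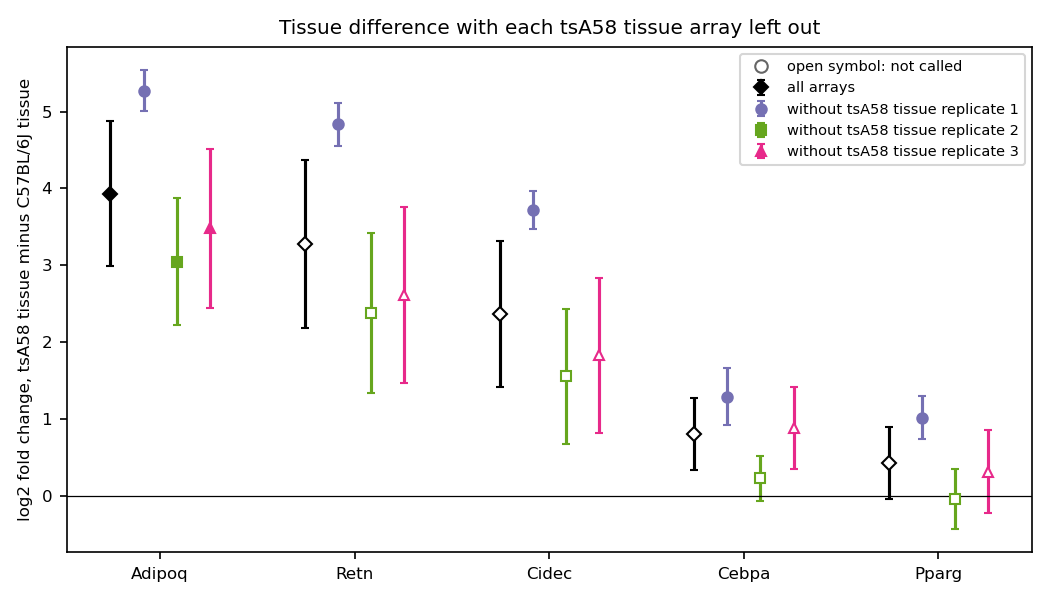
Log2 fold change of tsA58 tissue minus C57BL/6J tissue for 5 members, with all arrays and with each tsA58 tissue array left out; bars are standard errors and open symbols are not called. Leaving out replicate 1 brings Retn to 4.83, Cidec to 3.72, Cebpa to 1.30 and Pparg to 1.02, all called, while leaving out replicate 2 puts Pparg at -0.038. Without replicate 2 or replicate 3, Adipoq alone of the 5 is called.

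Adipoq, Retn and Cidec were high on the same tissue arrays, and Lep was not, so the bases before their start sites are shown. The sequences are those of RefSeq on GRCm38.p6, 250 bases before the start and read along the gene's strand; 6 of the 8 genes, with 9 starts in all, had an entry, and Fabp4 and Lpl had none. Both strands were searched for the C/EBP motif TTNNGCAA, the PPAR half-site AGGTCA, and a pair of these half-sites in the same direction with 1 base of any kind between them, which contains the half-site. Capitals mark a match. Adipoq lies at chr16:23146286-23146535 on the plus strand, Retn at chr8:3655520-3655769 on the plus strand, the starts of Cidec at chr6:113434765-113435014 and chr6:113435761-113436010 on the minus strand, and Lep at chr6:29059971-29060220 on the plus strand.
Adipoq: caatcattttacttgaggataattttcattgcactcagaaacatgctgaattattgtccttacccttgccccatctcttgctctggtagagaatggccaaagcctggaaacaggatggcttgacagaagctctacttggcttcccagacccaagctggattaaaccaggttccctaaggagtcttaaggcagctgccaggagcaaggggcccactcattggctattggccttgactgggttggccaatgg
Retn: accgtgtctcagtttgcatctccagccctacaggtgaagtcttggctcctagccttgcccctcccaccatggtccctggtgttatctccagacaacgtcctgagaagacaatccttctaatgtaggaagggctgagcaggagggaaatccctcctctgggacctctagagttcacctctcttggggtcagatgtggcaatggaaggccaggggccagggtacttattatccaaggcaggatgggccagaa
Cidec, start 1: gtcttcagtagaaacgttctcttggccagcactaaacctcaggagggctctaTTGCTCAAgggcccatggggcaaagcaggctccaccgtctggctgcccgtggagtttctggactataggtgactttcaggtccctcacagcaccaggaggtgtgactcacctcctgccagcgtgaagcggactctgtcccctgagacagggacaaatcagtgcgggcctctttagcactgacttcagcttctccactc
Cidec, start 2: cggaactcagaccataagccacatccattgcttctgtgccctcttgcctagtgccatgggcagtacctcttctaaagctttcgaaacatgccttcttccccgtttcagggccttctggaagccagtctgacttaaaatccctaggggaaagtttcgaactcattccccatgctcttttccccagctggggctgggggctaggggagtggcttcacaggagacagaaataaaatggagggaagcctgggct
Lep: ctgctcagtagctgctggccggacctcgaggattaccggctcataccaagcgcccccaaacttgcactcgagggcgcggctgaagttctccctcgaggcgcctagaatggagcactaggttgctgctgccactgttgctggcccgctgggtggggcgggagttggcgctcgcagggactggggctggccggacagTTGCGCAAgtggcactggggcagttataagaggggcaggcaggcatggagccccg

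The windows of Adipoq and Retn held none of the motifs. The window of Cidec start 1 held a C/EBP match, TTGCTCAA, 198 bases before the start, and that of Lep held TTGCGCAA 55 bases before it. Across 32851 mouse promoter windows of this length, 9.56% held the C/EBP motif, 14.0% the half-site and 0.0335% the pair. Of the starts of Pparg not printed, 2 held the half-site, 28 and 9 bases before the start, and the third held 2 C/EBP matches. A match is a run of letters and no measured site. The genes that moved together in tissue did not share a match that Lep lacked.

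Genes whose levels ran closest to Adipoq were ranked over 13285 genes, each by its brightest probe set, by the root mean square difference after centring each gene on its mean. Over the 5 tissue arrays they were Retnla at 0.27, Ces1d at 0.38, Car3 at 0.40, Retn at 0.42 and Pcolce2 at 0.59 log2 units. Retnla, a secreted relative of resistin, gave 6.95, 10.95 and 10.31 in tsA58 tissue, against 5.54 and 4.98 in C57BL/6J tissue. Car3, a carbonic anhydrase abundant in fat and muscle, gave 7.90, 11.79 and 11.18 in tsA58 tissue, against 7.22 and 6.76 in C57BL/6J tissue. Among the members Retn ranked 4 and Cidec 11, Cebpa 299, Fabp4 414, Pparg 500 and Lpl 987. Over all 11 arrays the closest were Car3 at 0.81, C1qb at 0.91, Maob at 0.95, C1qa at 1.01 and Lyz2 at 1.05, of which C1qa, C1qb and Lyz2 are genes of macrophages.

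Other genes of fat storage were read from lists of single genes. Of 15 tested genes of lipid droplets and lipolysis, 7 were called lower and 1 higher in the tsA58 line than in tsA58 tissue (median -1.01, against 0.00 over all 13285 genes, of which 18.9% were called lower and 12.8% higher). G0s2, an inhibitor of the lipase ATGL, was lower by -4.70 ± 0.31 (adjusted p = 7.85e-07), Plin4, a droplet coat protein, by -4.23 ± 0.34 (adjusted p = 3.89e-06), and Cidea, the relative of Cidec found in brown fat, by -3.56 ± 0.37 (adjusted p = 3.06e-05). In the C57BL/6J line 4 were called lower and 3 higher than in C57BL/6J tissue (median 0.11, against 0.12 over all genes, with 16.6% lower and 17.5% higher). Lipe, the hormone-sensitive lipase, was among the higher ones there, at 1.43 ± 0.53 (adjusted p = 0.0453), and was not called in the tsA58 line at -1.13 ± 0.47 (adjusted p = 0.0737).

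The tsA58 tissue was called higher than C57BL/6J tissue for 4 of these 15 genes and lower for 0 (median 0.32, against 0.18 over all genes, with 9.79% higher and 3.37% lower). Plin4 was higher by 2.58 ± 0.38 (adjusted p = 0.00129), with 7.68, 8.65 and 9.15 in tsA58 tissue, against 5.94 and 5.89 in C57BL/6J tissue. Lipe was higher by 2.51 ± 0.53 (adjusted p = 0.00712) and Pnpla2, which encodes ATGL, by 1.64 ± 0.28 (adjusted p = 0.00259). Plin4 and Pnpla2 were lowest in replicate 1 as the members were, though all 3 tsA58 arrays lay above both C57BL/6J arrays. Plin1 was not analysed here.

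Of 8 tested genes of triglyceride synthesis, 4 were called lower in the tsA58 line than in tsA58 tissue and 0 higher (median -0.97), and 0 lower and 1 higher in the C57BL/6J line than in its tissue (median -0.40). The shares of all genes were 18.9% lower and 12.8% higher in the tsA58 line, and 16.6% lower and 17.5% higher in the C57BL/6J line. The medians over all genes were 0.00 and 0.12. Pck1, which makes glycerol phosphate precursors in fat, was lower in the tsA58 line by -3.45 ± 0.54 (adjusted p = 0.000486), and Gpd1, which makes glycerol phosphate, by -2.06 ± 0.36 (adjusted p = 0.000883). Between tissues 3 were called higher in tsA58 and 0 lower (median 0.91), led by Pck1 at 2.98 ± 0.61 (adjusted p = 0.0061). There 9.79% of all genes were called higher and 3.37% lower. Pck1 gave 4.58, 7.38 and 6.73 in tsA58 tissue, against 3.15 and 3.34 in C57BL/6J tissue. Without tsA58 tissue replicate 1, which was chosen for this check after the data were seen, 6 of the 8 were called higher in tsA58 tissue, where 9.31% of all genes were.

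Of 9 tested genes of fatty acid synthesis, 2 were called higher in the tsA58 line than in tsA58 tissue and 0 lower (median 0.13), and 3 higher and 0 lower in the C57BL/6J line than in its tissue (median 0.89), where 12.8% and 17.5% of all genes were called higher and the medians over all genes were 0.00 and 0.12. Scd2, a desaturase, was higher in both, by 2.31 ± 0.26 for tsA58 (adjusted p = 4.46e-05) and 2.09 ± 0.29 for C57BL/6J (adjusted p = 0.000184). Srebf1, the regulator of lipid synthesis, was higher by 1.38 ± 0.24 (adjusted p = 0.00109) and 1.18 ± 0.27 (adjusted p = 0.0049). Between tissues 1 was called higher in tsA58, Scd1, the main desaturase of fat, at 3.29 ± 0.46 (adjusted p = 0.000977), with means of 10.26 in tsA58 tissue, against 6.97 in C57BL/6J tissue. That count is near the 9.79% of all genes called higher there.

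Of 9 genes of fatty acid uptake, which share the pathway of Lpl, 6 were called lower and 0 higher in the tsA58 line than in tsA58 tissue (median -1.38), and 4 lower and 1 higher in the C57BL/6J line (median -0.32). Of all genes, 18.9% were called lower and 12.8% higher in the tsA58 line, and 16.6% lower and 17.5% higher in the C57BL/6J line. Cd36, a fatty acid transporter of fat, endothelium and macrophages, was lower by -5.43 ± 0.41 (adjusted p = 2.74e-06) and -3.87 ± 0.46 (adjusted p = 7.94e-05), and Gpihbp1, which holds lipoprotein lipase on the capillary wall, by -2.43 ± 0.18 (adjusted p = 2.39e-06) and -1.31 ± 0.20 (adjusted p = 0.000429). Lpl itself was among the bright probe sets of the same line arrays. Between tissues 3 were called higher and 1 lower in tsA58 (median 0.72), with 9.79% of all genes higher and 3.37% lower. The one lower was Fabp5, the carrier of skin and macrophages, at -1.96 ± 0.53 (adjusted p = 0.0223), whose levels were 10.42, 11.48 and 10.35 in tsA58 tissue, against 12.62 and 12.80 in C57BL/6J tissue. Without tsA58 tissue replicate 1, 0 of the 9 were called lower, so the call of Fabp5 was lost.

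All 6 tested Fabp genes were called lower in each line than in its tissue, with 18.9% of all genes lower in tsA58 and 16.6% in C57BL/6J. On each line array 2 of the 9 measured Fabp genes lay above the array median, against 6 or 7 on each tissue array. Genes could thus pass the filter through tissue arrays alone, so this count is a description. Fabp7, a carrier of glia and their progenitors, had the largest fall in C57BL/6J, at -7.55 ± 0.45 (adjusted p = 8.45e-07), and -5.77 ± 0.41 in tsA58 (adjusted p = 1.46e-06). Between tissues 3 of the 6 were called lower in tsA58 and 0 higher, with Fabp4 not among them. There 3.37% of all genes were called lower and 9.79% higher. Without tsA58 tissue replicate 1, 5 of the 6 were called lower in the tsA58 line and 2 were called lower in tsA58 tissue.

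Of 8 tested secreted factors of fat besides the members, 5 were called lower in the tsA58 line than in tsA58 tissue and 0 higher (median -1.73), and 2 lower and 1 higher in the C57BL/6J line (median -0.43). Among all genes, 18.9% were called lower and 12.8% higher in the tsA58 line. In the C57BL/6J line 16.6% were lower and 17.5% higher, so its counts lie near the background. Apoe, the lipoprotein component, was lower by -6.49 ± 0.17 (adjusted p = 1.36e-09) in tsA58 and -4.11 ± 0.19 (adjusted p = 1.49e-07) in C57BL/6J, and Rarres2, which encodes chemerin, by -5.91 ± 0.24 (adjusted p = 1.99e-08) and -5.89 ± 0.26 (adjusted p = 9.81e-08). Rarres2 and Apoe varied little between tissue arrays, from 11.22 to 11.37 and from 11.02 to 11.24 in tsA58 tissue. Between tissues 3 were called higher in tsA58 and 0 lower (median 0.95), led by Retnla at 4.14 ± 0.89 (adjusted p = 0.00783). There 9.79% of all genes were called higher and 3.37% lower. Cfd was not analysed here. Of 3 tested adiponectin receptor genes, Cdh13, which encodes T-cadherin, was the 1 called lower in both lines, by -2.90 ± 0.40 (adjusted p = 0.000214) and -1.65 ± 0.45 (adjusted p = 0.0118), and Adipor1 was called higher in the C57BL/6J line (1.19 ± 0.18, adjusted p = 0.000329).

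Among 12 tested regulators of fat cell differentiation other than Pparg and Cebpa, the early factor Cebpb rose in both lines. It was higher by 2.36 ± 0.25 in the tsA58 line (adjusted p = 3.45e-05) and by 5.19 ± 0.28 in the C57BL/6J line (adjusted p = 3.94e-07) than in tissue. Cebpd was higher by 4.81 ± 0.65 in the C57BL/6J line (adjusted p = 0.00017) and not called in the tsA58 line at 0.52 ± 0.58 (adjusted p = 0.494). In all, 1 was called higher and 3 lower in the tsA58 line (median -0.52), and 3 higher and 2 lower in the C57BL/6J line (median -0.12). Over all genes, 12.8% were called higher and 18.9% lower in the tsA58 line, and 17.5% higher and 16.6% lower in the C57BL/6J line, so most of these counts lie near the background. Klf15, a regulator of the mature fat cell, was lower in the tsA58 line by -3.28 ± 0.34 (adjusted p = 2.92e-05). Between tissues 5 were called higher in tsA58 and 1 lower (median 0.77), with 9.79% of all genes higher and 3.37% lower. Cebpd was higher in tsA58 tissue by 3.57 ± 0.65 (adjusted p = 0.00352) but with 10.43, 8.55 and 11.05 it was lowest in replicate 2, and Klf15 was higher by 3.17 ± 0.38 (adjusted p = 0.000467).

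Of 9 tested genes of fat cell precursors, 4 were called lower and 1 higher in the tsA58 line than in tissue (median -1.20), and 4 lower and 2 higher in the C57BL/6J line (median -0.68). The shares of all genes were 18.9% lower and 12.8% higher in the tsA58 line, and 16.6% lower and 17.5% higher in the C57BL/6J line. Dlk1, which marks preadipocytes and is lost in mature fat cells, gave 8.03, 4.54 and 5.23 in tsA58 tissue, against 8.26 and 8.21 in C57BL/6J tissue. Its highest tsA58 tissue array was thus replicate 1, the lowest for all members. Between tissues 1 of the 9 was called higher in tsA58 and 1 lower (median 0.62), with 9.79% of all genes higher and 3.37% lower. The one higher was Pi16, of fibroblast progenitors, at 2.78 ± 0.45 (adjusted p = 0.00198).

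Of 6 genes of heat-producing fat 3 were tested, while Ucp1 stayed under the filter and was not. Between tissues 1 of the 3 was called higher in tsA58 and 1 lower, with 9.79% of all genes higher and 3.37% lower. Cox8b gave 6.51, 9.20 and 8.32 in tsA58 tissue, against 6.06 and 5.44 in C57BL/6J tissue, a difference of 2.26 ± 0.59 (adjusted p = 0.0198), while Prdm16 was lower in tsA58 tissue by -1.91 ± 0.44 (adjusted p = 0.0112). Of 4 tested genes of the insulin response of fat, 1 was called lower in each line than in its tissue. Of all genes, 18.9% were in tsA58 and 16.6% in C57BL/6J. Between tissues 1 of the 4 was called higher in tsA58, with 9.79% of all genes. Each of these calls was Slc2a4, the insulin-responsive glucose transporter of fat and muscle. It was lower in the tsA58 line by -3.60 ± 0.28 (adjusted p = 3.47e-06) and in the C57BL/6J line by -1.53 ± 0.32 (adjusted p = 0.00253). It was higher in tsA58 tissue than in C57BL/6J tissue by 1.40 ± 0.32 (adjusted p = 0.0102).

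Between the lines, where no member but Pparg was called, 4 of 15 droplet genes were called lower in the tsA58 line and 0 higher (median -0.33, against -0.04 over all genes, with 5.82% lower and 8.42% higher). Of 9 genes of fatty acid uptake, 1 was called lower in the tsA58 line and 0 higher. That gene was Angptl4, an inhibitor of lipoprotein lipase and a target of PPARs, at -2.24 ± 0.50 (adjusted p = 0.00986). Of 8 tested secreted factors, 2 were called lower in the tsA58 line and 1 higher (median 0.06). Rbp4, the retinol carrier, was among the lower ones, at -2.69 ± 0.47 (adjusted p = 0.00264).

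Markers of other cells and technical measures also differed between the tissue arrays. Macrophage genes averaged 7.46, 8.59 and 8.12 over 10 genes in tsA58 tissue, against 7.12 and 7.32 in C57BL/6J tissue, with 9, 10 and 9 of the 10, and 9 and 10, above the array median. Gastric epithelium genes averaged 10.06, 12.74 and 10.55 over 8 genes in tsA58 tissue, against 10.94 and 10.62, and all 8 were above the median throughout. Exocrine pancreas genes averaged 4.69, 10.10 and 5.51 over 6 genes in tsA58 tissue, against 10.93 and 5.83. Pancreas genes were thus high on tsA58 replicate 2 and C57BL/6J replicate 1, and lower on the other tissue arrays. Endothelial genes were highest on replicate 1 among the tsA58 tissue arrays, at 7.12, 6.86 and 6.36, against 5.52 and 5.64 in C57BL/6J tissue. Of 10 endothelial genes, 5 were called higher in tsA58 tissue than in C57BL/6J tissue. Between tissues 4 smooth muscle and 4 macrophage genes were also called higher in tsA58, and 0 of the epithelium or pancreas genes. All 10 endothelial genes were called lower in the tsA58 line, as were all 8 smooth muscle and all 8 gastric epithelium genes. Of 10 macrophage genes 7 were called lower there and 1 higher, and of 6 pancreas genes 1 was lower. Among all genes, 9.79% were called higher between tissues and 18.9% lower in the tsA58 line. On each tsA58 line array 2 of the 10 endothelial genes lay above the array median. Endothelial genes could thus pass the filter through tissue arrays alone, so their count is a description. The smooth muscle genes were at 12.57, 12.39 and 12.72, against 10.98 and 11.20. The part of macrophage, epithelial, pancreas, endothelial or smooth muscle cells in the levels of the 8 genes was not tested.

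**Figure D4:**
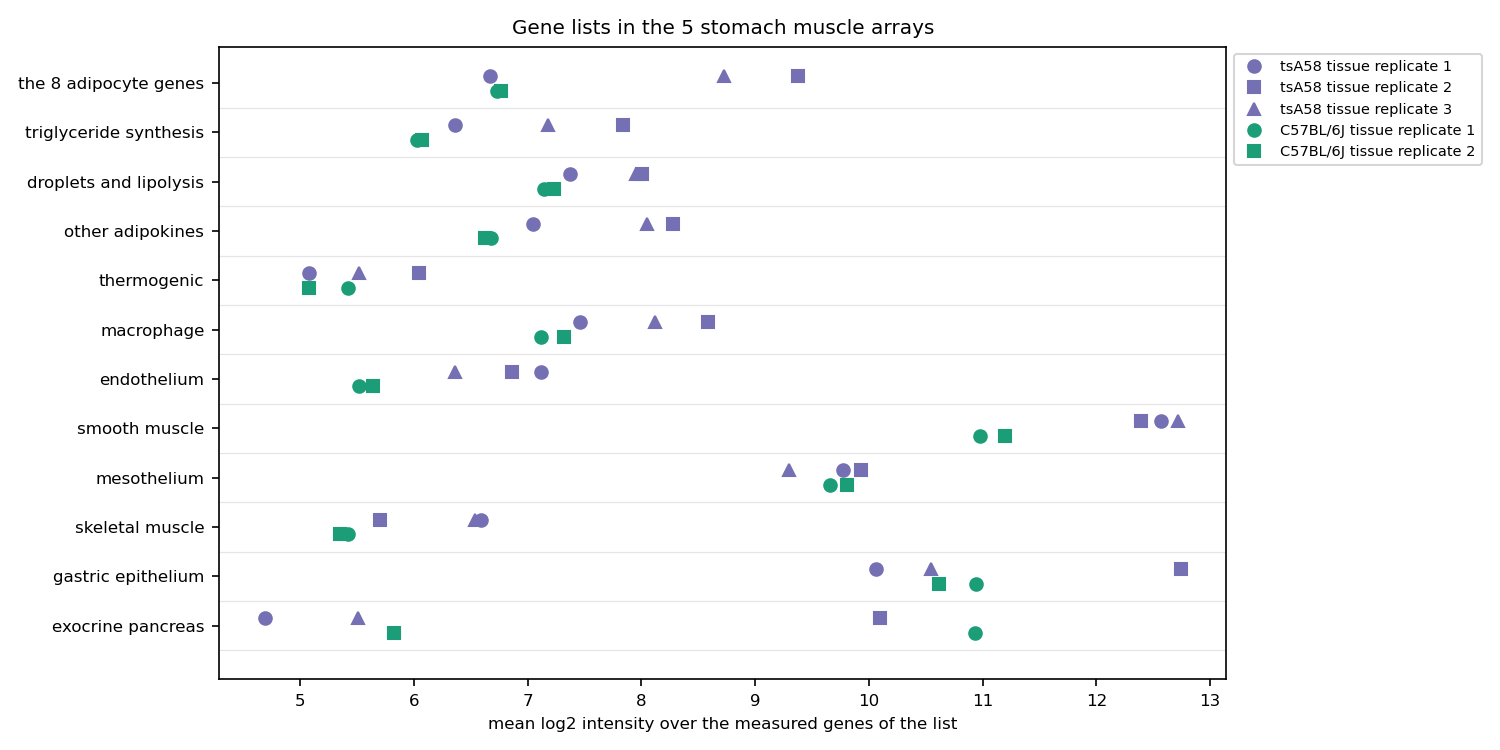
Mean log2 intensity of the measured genes of 12 lists on the 5 tissue arrays, tsA58 tissue above C57BL/6J tissue in each row. The 8 adipocyte genes and the triglyceride synthesis genes are lowest in replicate 1 among tsA58 arrays (6.67 and 6.36). So are the droplet, other adipokine, thermogenic, macrophage (7.46), gastric epithelium (10.06) and pancreas (4.69) lists. Pancreas genes are high on 2 arrays only (10.10 and 10.93), and endothelial genes are highest in replicate 1 (7.12).

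Hybridisation controls, transcripts added to each array's target, averaged 7.52, 9.04 and 9.66 in tsA58 tissue, against 10.96 and 10.77 in C57BL/6J tissue, so within tsA58 tissue they were lowest on replicate 1, the tsA58 array with the least Adipoq, while the C57BL/6J tissue arrays had higher controls and less Adipoq than any tsA58 tissue array. Their part in the result was not tested. Centring arrays on these controls moved the median difference between tissues over all probe sets to 2.24, against 0.12 without it, so the directions above are relative to the bulk of transcripts on the array. The sex-linked genes separated the arrays in another way than Adipoq did. Xist gave 4.83, 9.32 and 4.66 and the Y-linked Eif2s3y 8.87, 2.92 and 9.35 in tsA58 tissue, against Xist at 10.12 and 5.47 and Eif2s3y at 7.91 and 8.09 in C57BL/6J tissue. Replicates 2 and 3 of tsA58 tissue, both high in Adipoq, thus differed in these genes. C57BL/6J tissue replicate 1 carried signal of both Xist and Eif2s3y. The labels do not say whether that array holds RNA of more than 1 animal, and this was not tested.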

How the data were processed

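RNA of the 11 samples was hybridised to 1 Affymetrix mouse array each. Per the labels' protocols, about 50 ng of total RNA went through 2 rounds of amplification, primed with oligo(dT) and then with random primers. Values come as deposited, on a log2 scale, 1 intensity for each probe set; the authors used RMA according to the submitters' processing notes, version not given in the sources used here. RMA equalises the intensity distributions of arrays, so a change of most transcripts in one direction would not be seen. No detection calls come with the values, and the number of arrays limits the precision.

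Of 45101 probe sets, 64 are controls, 34945 carried 1 symbol, 932 several and 9160 none; the last 2 kinds were not named. Testing was limited to the 26903 non-control probe sets that lay above their array's median on at least 2 arrays. limma 3.58.1 in R 4.3.3 (lmFit, eBayes) fitted 4 group means, with 7 residual and 3.71 prior degrees of freedom, and p-values were adjusted by Benjamini-Hochberg over all tested probe sets of each of 5 comparisons. Groups came from titles and strain labels. The 20 alternatives changed filter, scaling, weights, spread, unit of the fit or the arrays used, or added the replicate number as a block. The fit was tested on simulated data.

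The members and the 19 other gene lists, with 157 genes of which 150 were measured and 137 tested, were chosen with earlier results of these data known. For a list, each gene stands for its brightest probe set by mean, and counts are read against the 13285 genes so represented. Genes named beside the members were, per list, up to 4 called genes with the largest change, the 5 genes most like Adipoq, and paralogs of Fabp4 and Cidec; from these a smaller choice is printed, and Lipe, Srebf1, Gpihbp1, Rbp4, Prdm16, the sex-linked genes and genes given for contrast were printed after their values were seen. Promoter sequences are RefSeq's on GRCm38.p6, a build the array files do not name. Tables and plots used matplotlib 3.10.9, pandas 2.3.3 and numpy 2.4.6 under Python 3.11.15.

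Replicate numbers did not pair the arrays: deviations from group means correlated between -0.157 and 0.22 for the 15 pairs with the same number and between -0.192 and 0.206 for the 30 others.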

Additional observations from a re-analysis of the deposited data

Results flagged for a closer look

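The line-minus-tissue difference of Adipoq stood out between the strains, at -4.09 ± 1.27 for tsA58 minus C57BL/6J (adjusted p = 0.0384 in limma), because the test of the difference itself passed the threshold. The difference was -7.22 in tsA58 and -3.13 in C57BL/6J, and it was negative for every pair of a line and a tissue array in both strains. Those pairs bear on each strain alone, not on the difference between strains. With both lines at background, the contrast rests on the tissue arrays. The call was lost in 9 of the 11 fits with 1 array left out, and without filter (adjusted p = 0.0630 in limma).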

How the results depend on the processing

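Fits with 1 array left out ranged as follows. Among the 8 genes' probe sets, calls ran from 3 to 6 lower in the C57BL/6J line against its tissue, from 0 to 1 lower between lines, from 0 to 5 higher and 0 to 1 lower between tissues, and from 0 to 1 higher and 0 to 4 lower in the difference of differences. Over all probe sets they ran from 1449 to 2859 higher and 863 to 1969 lower between tissues, and from 1535 to 3940 higher and 2043 to 4091 lower in the difference of differences. The sign changed for Lpl 1431056_a_at in the tsA58 line against its tissue (-0.55 to 0.65), Pparg between tissues (-0.038 to 1.02) and, in the difference of differences, Lpl 1415904_at (-0.17 to 0.46), Lpl 1431056_a_at (-1.11 to 0.090), Fabp4 1417023_a_at (-0.37 to 1.01), Fabp4 1451263_a_at (-0.45 to 0.84) and Cebpa (-0.36 to 0.70).

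Centring on hybridisation controls adds nearly a constant to each comparison; median differences became 0.70 against 0.10 for the tsA58 line minus its tissue, 1.38 against 0.15 for the C57BL/6J line minus its tissue, 1.47 against -0.02 between lines, 2.24 against 0.12 between tissues and -0.75 against -0.12 for the difference of differences. Called higher and lower over all probe sets were then 10930 and 1241 in the C57BL/6J line, 16140 and 180 between lines, 23701 and 46 between tissues, and 322 and 904 in the difference of differences, with 1872 lower in the tsA58 line. Of the members' probe sets 1 was called higher and 3 lower in the C57BL/6J line, 6 higher and 0 lower between lines, 9 higher between tissues, and 3 lower in the difference of differences. Signs turned between lines for Adipoq (1.34), Cidec (1.06), Fabp4 1425809_at (1.40), Pparg (0.20) and Retn (0.97), in the C57BL/6J line for Cidec (0.24) and Lpl 1415904_at (0.69), in the tsA58 line for Fabp4 1425809_at (0.046) and Lpl 1415904_at (0.19), between tissues for Fabp4 1425809_at (1.14), and in the difference of differences for Cebpa (-0.51), Fabp4 1417023_a_at (-0.35), Fabp4 1451263_a_at (-0.48) and Lpl 1415904_at (-0.49).

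Array weights, which fell to 0.196 for tsA58 line replicate 3 and 0.427 for tsA58 tissue replicate 1, gave 3525 calls higher between lines and 4412 in the difference of differences, and 3 member probe sets higher between tissues and 4 lower in the difference of differences. Signs turned between lines for Fabp4 1417023_a_at (-0.29) and 1451263_a_at (-0.17), in the tsA58 line for Lpl 1431056_a_at (-0.60), and in the difference of differences for Cebpa (-0.080), Fabp4 1417023_a_at (-1.09) and 1451263_a_at (-1.09) and Lpl 1415904_at (-0.21).

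With 1 probe set per gene, which tests fewer features, higher and lower calls were 1698 and 2516 for the tsA58 line, 2326 and 2204 for the C57BL/6J line, 1113 and 767 between lines, 1270 and 426 between tissues, and 970 and 1732 in the difference of differences. Array median centring called 2 members' probe sets higher between tissues and 0 lower between lines. The tissues alone gave 0 higher between tissues. Without filter, and with quantile normalization, 0 were called lower between lines and 0 in the difference of differences. The replicate block gave 0 for both, called 1 lower between tissues, and moved Retn to -0.12 in the C57BL/6J line; it lost the calls of Cebpa and Pparg in that line, Pparg between lines and Adipoq in the difference of differences (-3.93, adjusted p = 0.0552), and added Fabp4 1425809_at (-1.09, adjusted p = 0.0488) between tissues. The cause of these changes was not tested. Levels under the array median limit Lep everywhere, Adipoq, Cidec and Fabp4 1425809_at in both lines, Pparg in the tsA58 line, Fabp4 1451263_a_at in the C57BL/6J line and Cidec in C57BL/6J tissue.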
